A study of Homo sapiens with 6 samples.

Results

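The NFκB feedback inhibitors and direct targets examined here are 10 genes whose products hold NFκB signaling in check or are made in response to it. They are the cytoplasmic inhibitors NFKBIA, NFKBIB and NFKBIE, the nuclear inhibitor-related proteins NFKBIZ and BCL3, the ubiquitin-directed brakes TNFAIP3, TNIP1 and CYLD, and the receptor-complex proteins BIRC3 and TRAF1. They were chosen by name, and all 10 were found, each in 1 of the 24000 gene entries of the table. RNA was sequenced from 6 tumors of PC-3, a human prostate cancer cell line that lacks androgen receptor activity, grown in nude mice. The hosts of 3 tumors received vehicle and those of the other 3 received WCE, a standardized extract of the herb Wedelia chinensis that contains wedelolactone, luteolin and apigenin, with a labeled treatment of 10 weeks in both groups and no dose in the labels. In the study's methods the cells carried a luciferase gene and were placed in the anterior prostate of male athymic nude mice, obtained at 6 weeks of age, which lack T cells but keep myeloid cells and stroma. The tumors of both groups share this background, and the cells come from 1 line. For its PC-3 tumors the study's text gives a shorter course than the labels do. It names more than 1 daily dose of WCE, without saying which applied to the sequenced tumors.

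NFκB dimers rest in the cytoplasm bound to inhibitors of the IκB family. Upon stimulation by cytokines such as TNF, the IKK kinases phosphorylate the inhibitors, which are ubiquitinated and degraded, and the freed dimers enter the nucleus and bind κB sites in DNA. Among the first genes they switch on are NFKBIA, TNFAIP3 and BIRC3, so that transcripts of the inhibitors are commonly read as a measure of recent NFκB activity. The study asked whether WCE lowers NFκB signaling in these tumors, and the feedback genes bear on that question at the level of transcripts.

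The values are FPKM, fragments scaled to transcript length and to the mapped fragments of the tumor, which allow levels to be compared between genes. The groups were compared on log2(FPKM + 1) with limma over the 13287 entries with a mean of at least 0.5 FPKM, and all 10 genes passed this filter. Differences are given as WCE minus vehicle on this scale, on which changes of low genes come out too small. P-values measure only the spread between these tumors as labeled. The libraries of vehicle replicate 3 and WCE replicate 1 were nearly the same, since their median absolute log2 difference was 0.028 and that of the 14 further pairs ranged from 0.096 to 0.249. All 15805 entries with any signal in WCE replicate 1 also had signal in vehicle replicate 3. Each other tumor lacked signal for 329 to 546 of these entries. Whether the nearly identical libraries come from separate tumors was not tested, so the independence of all 6 labeled tumors was not established. The libraries of this pair carry different treatments. Each of the 10 genes is therefore given with all 6 tumors and with this pair left out, and so is the median of each list. The depth of the libraries, known only relative to vehicle replicate 3, was 25.0% in WCE replicate 1 and 64.8% to 85.2% in the other 4 tumors. The epithelial keratins KRT8 and KRT18 stood between 192 and 322 FPKM in all tumors, and KLK3 and KLK2, targets of the androgen receptor, were listed at 0 in all of them. The summed level of 3 epithelial markers, these keratins and EPCAM, was 698 to 825 FPKM with vehicle and 665 to 697 FPKM with WCE. EPCAM alone was lower in all WCE-treated tumors, at 123 to 180.0 against 185 to 305 FPKM, and the keratins overlapped. Myeloid markers were near 0 apart from CD68, at 25.3 to 40.0 FPKM with vehicle and 38.7 to 43.9 FPKM with WCE, with TYROBP at 0 in each tumor and PTPRC at no more than 0.666 FPKM. The summed level of 6 fibroblast markers was 42.1 to 56.4 FPKM with vehicle and 12.8 to 55.9 FPKM with WCE, with the lowest value in WCE replicate 2. Most of this sum was COL1A1, at 29.5 to 44.0 FPKM with vehicle and 10.4 to 45.7 FPKM with WCE. COL3A1 was at 5.81 to 11.3 FPKM with vehicle and 1.81 to 11.7 FPKM with WCE. LUM was at 0.599 to 3.15 FPKM with vehicle and 0.338 to 0.670 FPKM with WCE. COL1A2 was at most 0.628 and DCN at most 0.161 FPKM in any tumor. Endothelial markers summed to at most 3.37 FPKM with vehicle and 7.60 FPKM with WCE. Within this sum KDR was at 0.216 to 0.529 FPKM with vehicle and 0.559 to 5.12 FPKM with WCE, while PECAM1 overlapped between the groups. These markers are entries for human genes, while the host's myeloid cells and stroma are of the mouse. Their values, low or not, therefore cannot be read as a measure of those host cells. The part of other cells in the results was not tested, and in whole tumors fewer cells of a type and less RNA per cell cannot be told apart.

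Most of these genes have a κB motif close to a start of transcription. RefSeq promoters (GRCh38.p14, 250 bases before to 50 after each annotated start) were found for 9 of the 10 genes, all but NFKBIE. A match to the κB consensus, searched on both strands with overlapping matches joined, was present in 8 of these 9 genes (88.9%) and lay before the start in 7. Over all 27305 genes with a promoter in the table the share was 7.09%, and over the 9544 with a tested entry it was 9.14%. Because the genes were listed as feedback genes and targets of NFκB, a high share may follow from that choice and is no independent evidence. Genes with more annotated starts hold a match more often, with shares of 5.57%, 11.0% and 15.6% for genes with 1, 2 and 3 starts, and the 9 genes here have 1 to 3. The 250 bases before the start of the 3 best-known feedback targets are shown first, with the matches in capitals.
NFKBIA (chr14:35404750-35404999, minus strand): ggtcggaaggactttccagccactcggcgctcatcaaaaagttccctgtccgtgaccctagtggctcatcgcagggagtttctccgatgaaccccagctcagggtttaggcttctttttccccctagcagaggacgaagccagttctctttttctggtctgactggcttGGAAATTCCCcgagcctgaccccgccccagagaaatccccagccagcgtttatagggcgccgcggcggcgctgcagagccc
TNFAIP3 (chr6:137867009-137867258, plus strand): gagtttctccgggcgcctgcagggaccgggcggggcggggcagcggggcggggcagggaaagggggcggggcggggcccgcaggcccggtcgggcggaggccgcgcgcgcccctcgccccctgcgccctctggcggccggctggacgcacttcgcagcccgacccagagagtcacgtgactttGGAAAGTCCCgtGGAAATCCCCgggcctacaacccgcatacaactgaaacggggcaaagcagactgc
BIRC3 (chr11:102317234-102317483, plus strand): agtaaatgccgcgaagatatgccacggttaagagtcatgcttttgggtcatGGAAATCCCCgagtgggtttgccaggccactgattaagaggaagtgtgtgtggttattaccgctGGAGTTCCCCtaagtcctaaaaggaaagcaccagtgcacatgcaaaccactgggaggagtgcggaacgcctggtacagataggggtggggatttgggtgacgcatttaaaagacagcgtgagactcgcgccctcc
Counted from the start, with the base before it as −1, NFKBIA has 1 match at −81 to −72. TNFAIP3 has a pair of matches close together, at −67 to −58 and −55 to −46. BIRC3 also has a pair, further from the start at −199 to −190 and −135 to −126.

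The matches of other members are shown with their flanks, to let the motif be compared between genes.
NFKBIB, downstream start (chr19:38899931-38899960, plus strand): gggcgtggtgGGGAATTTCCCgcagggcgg
NFKBIZ, upstream start (chr3:101827757-101827786, plus strand): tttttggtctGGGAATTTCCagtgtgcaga
NFKBIZ, downstream start (chr3:101849265-101849294, plus strand): gcgcgctgtcGGGGTTTCCCggtgaagggc
TNIP1, upstream start (chr5:151081057-151081086, minus strand): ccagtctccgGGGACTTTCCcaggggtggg
CYLD, most upstream start (chr16:50741887-50741916, plus strand): ttgacagagcGGAAAGTCCCttcggccggc
The match of NFKBIB spans 11 bases because both strands match in overlap. Those of NFKBIZ begin at −223 and −239 from its annotated starts, the match of TNIP1 at −42 and that of CYLD at −189. CYLD had a further match after another start, BCL3 had its only match after the start, and TRAF1 had none at its 3 starts. A match describes these letters only and does not show that NFκB binds there in these tumors.

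**Figure D1:**
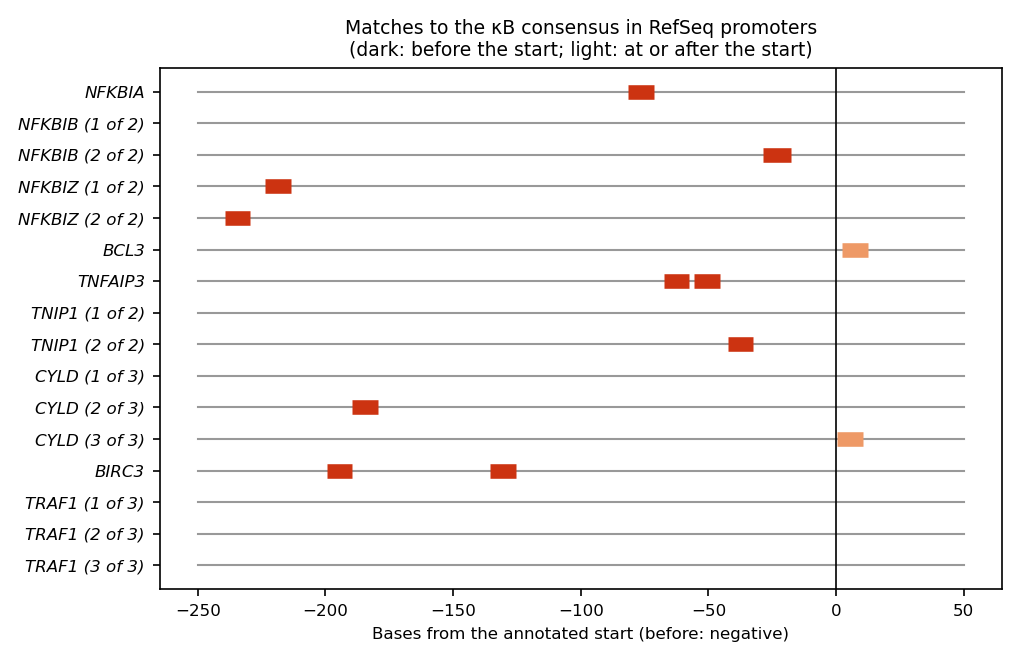
Position of each match to the κB consensus, in bases from the annotated start, for every RefSeq promoter of 9 genes (grey lines, 250 bases before to 50 after the start). Dark bars lie before the start and light bars at or after it. The matches of TNFAIP3, TNIP1 and NFKBIB begin at −67 or nearer to the start, and those of NFKBIZ and BIRC3 begin at −135 or further away.

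Before any comparison of groups, the genes differed widely in level. NFKBIA was the most abundant, with a mean of 74.6 FPKM over the 6 tumors, followed by TNIP1 at 55.6 and the entry that holds NFKBIZ at 32.0 FPKM. NFKBIB (15.1 FPKM) and TNFAIP3 (9.95 FPKM) were in the middle. BIRC3, BCL3, NFKBIE and CYLD were within a narrow band of means, from 6.58 down to 4.70 FPKM, and TRAF1 was the lowest at 0.952 FPKM. NFKBIA exceeded TNIP1, and TNIP1 exceeded the NFKBIZ entry, in 6 of 6 tumors, although their ranges over the tumors overlapped. The order of BIRC3, BCL3, NFKBIE and CYLD was not fixed, since each neighboring pair kept its order in 4 of 6 tumors. Among the cytoplasmic inhibitors, the FPKM of NFKBIA was 3.62 to 5.61 times that of NFKBIB and 12.3 to 16.1 times that of NFKBIE, depending on the tumor.

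**Figure D2:**
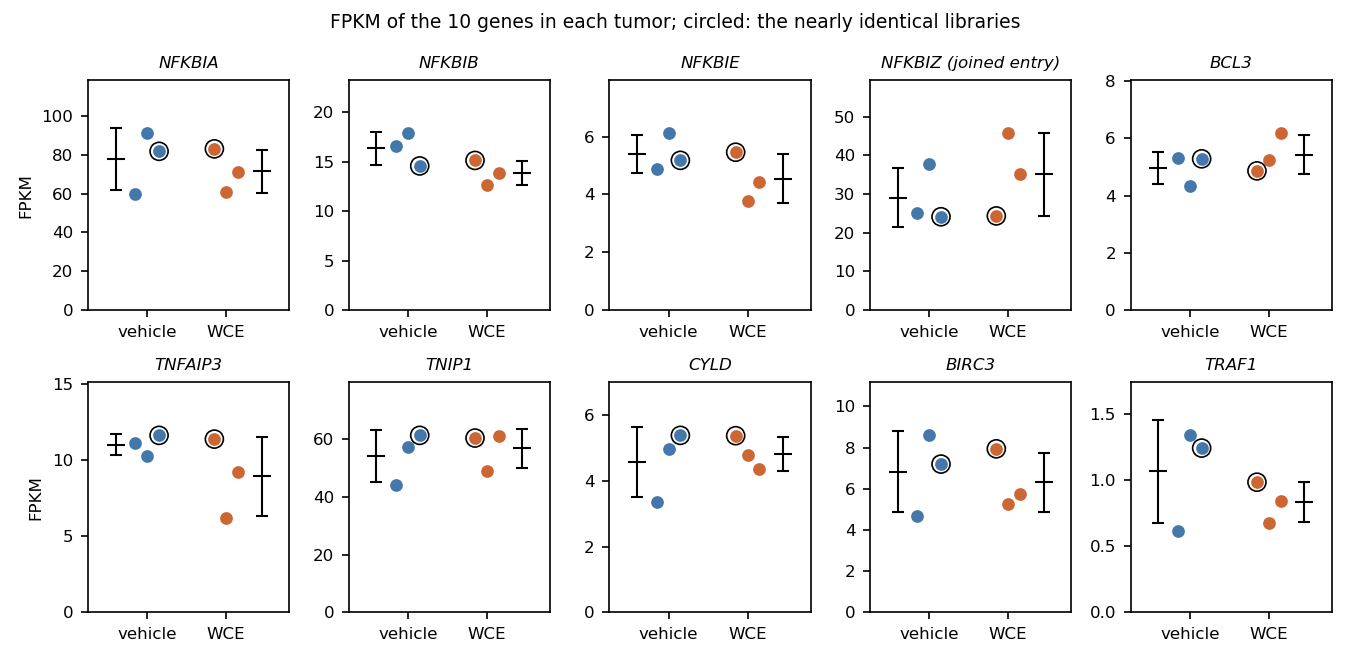
FPKM of each gene in the 3 vehicle-treated (blue) and 3 WCE-treated (orange) tumors, in the order of replicates 1 to 3, with the mean and SD of each group beside the points. Circles mark the nearly identical libraries, vehicle replicate 3 and WCE replicate 1. The groups overlap in all 10 genes, and the vertical axes start at 0.

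NFKBIA encodes IκBα, the inhibitor that is degraded and resynthesized fastest and the classical feedback target of NFκB. Its entry, at chromosome 14 from 35870716 to 35873960 as the table lists it, stood at 60.05, 91.1 and 81.8 FPKM in vehicle replicates 1 to 3 and at 83.0, 60.9 and 70.9 FPKM in WCE replicates 1 to 3. The lowest vehicle-treated tumor was thus below the lowest WCE-treated tumor, and the groups overlapped throughout. The means were 77.7 ± 16.0 and 71.6 ± 11.1 FPKM (SD, n = 3 each), a log2 difference of −0.11 with a 95% interval from −0.52 to 0.31 (adjusted p = 0.861 by limma). The spread within groups, 0.27 on the log2 scale, exceeded this difference, which became 0.020 without vehicle replicate 2 and 0.0045 without WCE replicate 2. Without the nearly identical pair it was −0.17 (interval −0.72 to 0.39).

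NFKBIB encodes IκBβ, which is degraded and restored more slowly. Its locus on chromosome 19, from 39369195 to 39399534, is shared with SIRT2. Vehicle-treated tumors had 16.6, 17.9 and 14.6 FPKM, and WCE-treated tumors 15.1, 12.7 and 13.9 FPKM. The only overlap came from the nearly identical pair, in which the WCE-treated tumor was the higher. The log2 difference of −0.22 (standard error 0.11, interval −0.48 to 0.046) had the lowest unadjusted p of the 10 genes, 0.0929, and an adjusted p of 0.623 by limma. Without the pair, both WCE-treated tumors were below both vehicle-treated tumors and the difference was −0.35 (interval −0.64 to −0.064, unadjusted p = 0.0255, adjusted p = 0.222 by limma). Without vehicle replicate 3 alone it was −0.29 with an unadjusted p of 0.0429 by limma.

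NFKBIE encodes IκBε, another cytoplasmic inhibitor that NFκB itself induces. At chromosome 6 from 44225903 to 44233525, it had 4.87, 6.12 and 5.18 FPKM with vehicle and 5.46, 3.77 and 4.42 FPKM with WCE. WCE replicates 2 and 3 were the lowest of the 6, and WCE replicate 1 was the second highest. The log2 difference was −0.21 (interval −0.55 to 0.13, adjusted p = 0.658 by limma), and −0.35 (interval −0.75 to 0.053) without the pair, where both WCE-treated tumors were again below both vehicle-treated ones. All 3 cytoplasmic inhibitors thus had a lower mean in the WCE group, and none of them passed the test with the 6 tumors.

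The nuclear members of the family had higher means in the WCE group. NFKBIZ encodes IκBζ, a nuclear cofactor that NFκB induces and that is needed for a set of secondary targets, IL6 among them. Its entry on chromosome 3, from 101498029 to 101579869, is joined with the neighboring gene FAM55C, so its values are not those of NFKBIZ alone. They were 25.1, 37.8 and 24.1 FPKM with vehicle and 24.4, 45.7 and 35.2 FPKM with WCE. The highest value was in WCE replicate 2, the tumor in which NFKBIB, NFKBIE and TNFAIP3 were lowest. The log2 difference was 0.25 (interval −0.33 to 0.83, adjusted p = 0.746 by limma) and 0.37 without the pair, and its spread within groups, 0.40 on the log2 scale, was the widest of the 10 genes. BCL3 encodes an IκB-like partner of the p50 and p52 homodimers in the nucleus. At chromosome 19 from 45251978 to 45263301, it had 5.30, 4.33 and 5.28 FPKM with vehicle and 4.86, 5.23 and 6.18 FPKM with WCE. WCE replicate 3 was the highest and vehicle replicate 2 the lowest of the 6, and the others overlapped. Its log2 difference was 0.10 (interval −0.19 to 0.40) with all tumors and 0.21 (interval −0.18 to 0.60) without the pair.

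TNFAIP3 encodes A20, which edits ubiquitin chains on signaling proteins upstream of IKK and ends the response. Its entry at chromosome 6 from 138188581 to 138204449 had 11.1, 10.3 and 11.6 FPKM with vehicle, the closest agreement of any of the 10 genes within that group, and 11.4, 6.22 and 9.20 FPKM with WCE. WCE replicates 2 and 3 were below every vehicle-treated tumor, and WCE replicate 1 was above all but its near-identical counterpart. The means were 11.0 ± 0.683 and 8.93 ± 2.58 FPKM (SD, n = 3 each), and the log2 difference of −0.30 (interval −0.75 to 0.14, unadjusted p = 0.149 and adjusted p = 0.638 by limma) was the largest of the 10 in size. It was −0.44 (interval −0.93 to 0.047) without the pair. The value depended on single libraries of the WCE group, since it was −0.48 without WCE replicate 1 (unadjusted p = 0.0234 and adjusted p = 0.262 by limma) and −0.092 without WCE replicate 2.

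TNIP1 encodes ABIN1, which binds ubiquitin chains and brings A20 to its substrates. At chromosome 5 from 150409504 to 150467221, it had 44.2, 57.3 and 61.3 FPKM with vehicle and 60.4, 49.0 and 61.2 FPKM with WCE. CYLD encodes a deubiquitinase that removes linear and lysine-63-linked chains and is a tumor suppressor in skin appendages. At chromosome 16 from 50775961 to 50835846, it had 3.35, 4.98 and 5.38 FPKM with vehicle and 5.37, 4.76 and 4.34 FPKM with WCE. In both genes vehicle replicate 1 was the lowest of the 6 tumors and the groups overlapped. The log2 differences were 0.07 (interval −0.28 to 0.42) for TNIP1 and 0.08 (interval −0.30 to 0.46) for CYLD, both were 0.12 without the pair, and without vehicle replicate 1 they were −0.065 and −0.088. No difference in TNIP1 or CYLD was detectable beyond the spread between tumors.

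BIRC3 encodes cIAP2, a ubiquitin ligase of the TNF receptor complex that NFκB induces and that limits cell death. At chromosome 11 from 102188181 to 102210135, it had 4.70, 8.60 and 7.20 FPKM with vehicle and 7.94, 5.29 and 5.73 FPKM with WCE. Its lowest and its highest value were both in the vehicle group, 1.83-fold apart. The log2 difference was −0.08 (interval −0.59 to 0.42, adjusted p = 0.921 by limma), −0.18 (interval −0.85 to 0.48) without the pair, and 0.082 without vehicle replicate 2. TRAF1, an adaptor that NFκB induces and that binds TRAF2 and the IAP ligases, had the lowest level of the 10 genes. At chromosome 9 from 123664671 to 123691451, it had 0.617, 1.34 and 1.25 FPKM with vehicle and 0.987, 0.678 and 0.845 FPKM with WCE. Its log2 difference was −0.16 (interval −0.57 to 0.26) and −0.14 without the pair. The 3 WCE values lay within the vehicle range.

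**Figure D3:**
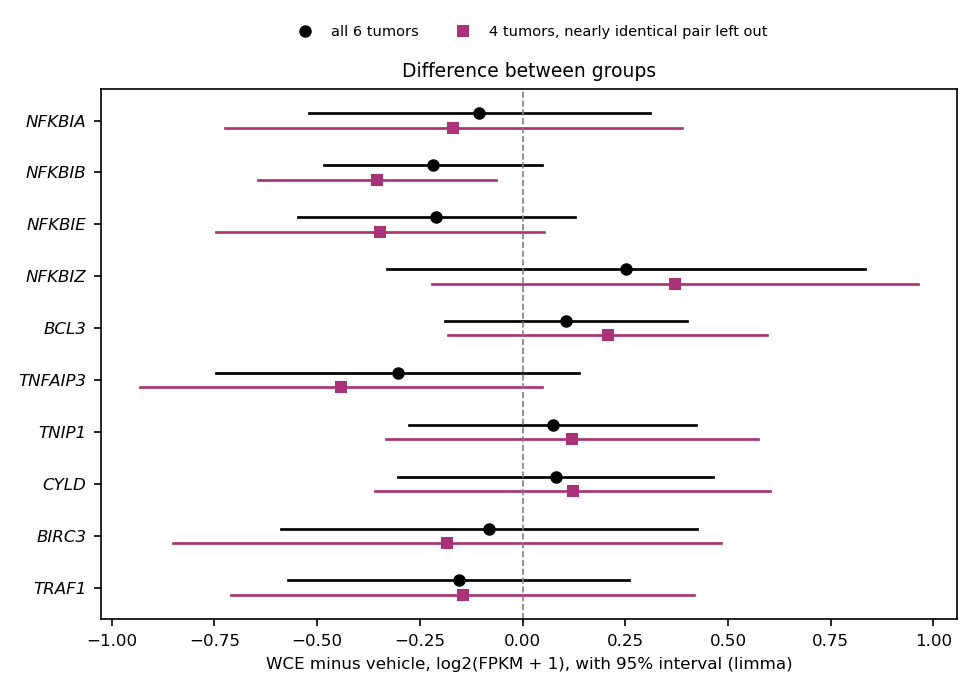
Difference between groups for each gene, WCE minus vehicle on the log2(FPKM + 1) scale, with the 95% interval from limma. Black circles use all 6 tumors and purple squares the 4 tumors left without the nearly identical pair. Every black interval includes 0, and among the purple ones only that of NFKBIB, from −0.64 to −0.064, does not.

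Over the 10 genes, 6 had a lower and 4 a higher mean in the WCE group, and 51.4% of all entries tested had a lower mean. None of the 10 had an adjusted p under 0.05 by limma (0.00753% of all entries did) and none an unadjusted p under 0.05 (7.1% of all entries, 3.33% lower and 3.78% higher in the WCE group), and an unmoderated test also gave 0 of 10. Exact permutation tests, whose smallest two-sided p is 0.1 for 3 tumors against 3, gave p from 0.2 for NFKBIB to 0.9 for CYLD and BIRC3. The groups were apart in 0 of the 10 genes, as against 12.8% of all entries, 6.4% with all WCE-treated tumors lower. The median log2 difference over the 10 genes was −0.09 (−0.16 without the pair), and over all entries tested it was −0.0063 (−0.0092 without the pair). With the nearly identical pair left out, both WCE-treated tumors were below both vehicle-treated tumors in 3 genes, NFKBIB, NFKBIE and TNFAIP3, and above them in 0. In that comparison 27.8% of all entries were lower and 25.7% higher in this sense (53.5% in either), so the count of 3 in 10 is near the background. NFKBIB alone had an unadjusted p under 0.05 there (18.4% of all entries, 9.59% with lower levels), and none of the 10 had an adjusted p under 0.05 by limma (0.0376% of all entries). With the 6 tumors, the intervals of NFKBIA, NFKBIE, NFKBIZ, TNFAIP3, BIRC3 and TRAF1 reached beyond 0.5 in size, so that equal levels were not shown.

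Tumors of the same group varied widely in these genes. The median of the pooled SD within groups was 0.23 on the log2 scale against 0.16 over all entries tested. In 7 of the 10 genes this SD exceeded the size of the difference between groups. The share of all entries for which this holds was not computed, so the count is not read as a trait of these genes. Vehicle replicate 1 had the lowest value of the 6 tumors in 5 genes, NFKBIA, TNIP1, CYLD, BIRC3 and TRAF1, and vehicle replicate 2 had the highest in 5, NFKBIA, NFKBIB, NFKBIE, BIRC3 and TRAF1. From the first to the second of these vehicle-treated tumors the level was 1.52-fold higher for NFKBIA, 1.83-fold for BIRC3 and 2.17-fold for TRAF1. WCE replicate 2 had the lowest value in 3 genes, NFKBIB, NFKBIE and TNFAIP3. Over all entries tested, vehicle replicate 1 was the lowest of the 6 tumors in 3243 and WCE replicate 2 in 2309 of 13287. As a median over the 10 genes, the deviation from the gene's own mean was −0.27 in the first and 0.25 in the second vehicle-treated tumor. It was −0.22 in WCE replicate 2 and −0.07 in WCE replicate 3. Single genes departed from these medians. BCL3 and TNFAIP3 were lower in vehicle replicate 2 than in vehicle replicate 1 (0.817-fold and 0.925-fold), and NFKBIZ was highest in WCE replicate 2. Between the nearly identical libraries the 10 genes differed by a median of 0.039 and at most 0.18, the latter in TRAF1.

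**Figure D4:**
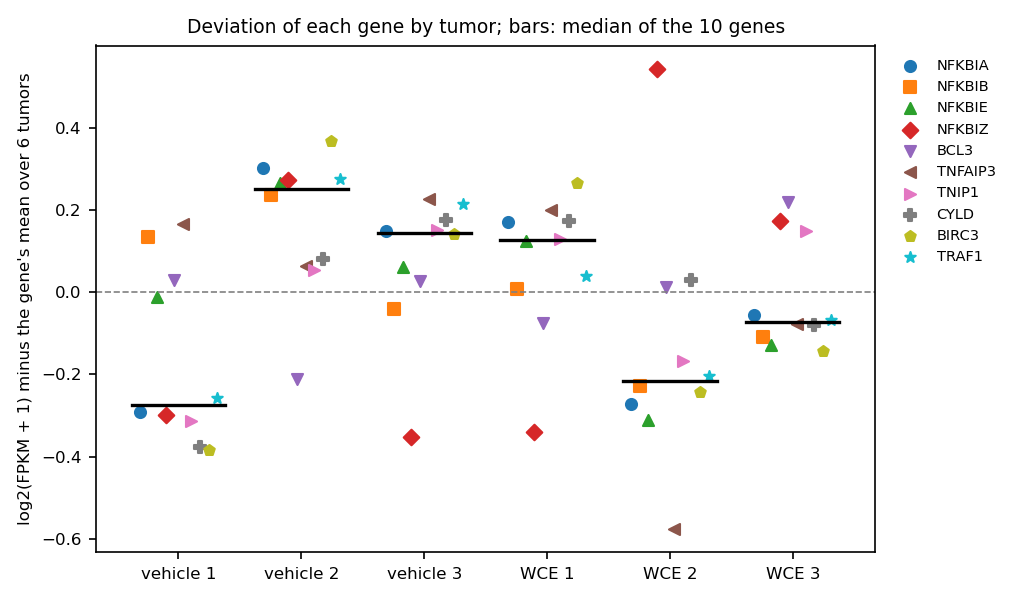
Deviation of each gene from its own mean over the 6 tumors, on the log2(FPKM + 1) scale, by tumor. Black bars give the median of the 10 genes. The bars run from −0.27 in vehicle replicate 1 to 0.25 in vehicle replicate 2.

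Other genes of the pathway were described by list. Of 8 NFκB subunits and IKK components, 0 reached an unadjusted p under 0.05 with limma, while 6 had a higher mean in the WCE group, with a median log2 difference of 0.11 both with all tumors and without the pair. RELA, the main activating subunit, had 41.0, 40.3 and 43.3 FPKM with vehicle and 42.1, 46.7 and 49.9 FPKM with WCE. The groups overlapped in RELA, with a log2 difference of 0.15, and without the pair both WCE-treated tumors were higher (0.24, unadjusted p = 0.0592 by limma). In IKBKB, a catalytic subunit of IKK singled out here after its values were seen, all WCE-treated tumors were above all vehicle-treated ones (0.27, unadjusted p = 0.0828 by limma). Over all entries, 12.8% had groups apart in either direction. CHUK, the other catalytic subunit, went the other way, with overlapping groups and a log2 difference of −0.18. Without the pair, CHUK was at −0.29 (unadjusted p = 0.0499 by limma, with 18.4% of all entries under 0.05).

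Of 16 further negative regulators, 15 were tested, of which 1 reached an unadjusted p under 0.05 with limma. The same count was 1 of 14 for components of the TNF receptor complex and 1 of 18 for other NFκB targets, shares near the 7.1% of all entries. The median log2 differences of the negative regulators and of the receptor complex were −0.06 and 0.03, and −0.10 and 0.05 without the pair. The negative regulator was NKIRAS1, which binds IκBβ and slows its degradation, with 19.8, 20.1 and 17.4 FPKM with vehicle and 14.9, 14.3 and 13.8 FPKM with WCE. All 3 WCE-treated tumors were below all vehicle-treated ones, including the nearly identical pair (log2 difference −0.38 ± 0.10 SE by limma, unadjusted p = 0.00467, adjusted p = 0.623, and −0.47 without the pair). Its locus is shared with RPL15, whose reads the counting could have divided. The component of the receptor complex was RNF31, the catalytic subunit of the linear ubiquitin ligase, at 13.9, 13.4 and 15.9 FPKM with vehicle and 18.0, 16.8 and 19.1 FPKM with WCE (log2 difference 0.30, unadjusted p = 0.0220 and adjusted p = 0.623 by limma, and 0.37 without the pair).

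Of 20 other NFκB targets, 18 were tested, with a median log2 difference of −0.11. This median was −0.17 without the pair, −0.26 without vehicle replicate 1 and −0.017 without WCE replicate 2. IER3, an early-response gene linked to cell survival, had 247, 244 and 210.2 FPKM with vehicle and 209.9, 148 and 146 FPKM with WCE. The gap between the groups was narrowest within the nearly identical pair, and the log2 difference was −0.49 (unadjusted p = 0.0161 and adjusted p = 0.623 by limma). It was −0.73 without the pair (unadjusted p = 0.000648 and adjusted p = 0.173 by limma). Among these 18 targets, as among the 10 genes, vehicle replicate 1 and WCE replicate 2 often had the lowest value, in 8 and 6 genes. The 7 cytokine genes that the study names, which it chose on these samples and which are no independent evidence, had lower means in 7 of 7 and a median of −0.61, with 5 at an unadjusted p under 0.05 and 0 at an adjusted one by limma. Without the pair the median was −0.88, with 6 at an unadjusted p under 0.05. Outside its RNA-seq, the study reported lower IL6, CXCL1, CXCL5, CXCL8 and CSF2 transcripts in WCE-treated tumors by qRT-PCR. It also reported less IL6 and CXCL1 in plasma, and less IL6, CXCL1 and CXCL8 by staining of tumors. Those measurements were not examined here. CXCL1, CXCL8, TGFB2 and IL6 had log2 differences of −0.53, −0.61, −0.69 and −0.60, which were −0.77, −0.88, −1.06 and −0.88 without the pair. The feedback inhibitors ranged from −0.30 to 0.25 in the same tumors, and whether the lists differ was not tested. Of the list genes with a RefSeq promoter, whether tested or not, 8 of 18 other targets (44.4%) and 4 of 7 cytokine genes (57.1%) held the κB consensus, against 1 of 12 genes of the receptor complex. The other targets were listed as NFκB targets, so their share is no independent evidence.

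**Figure D5:**
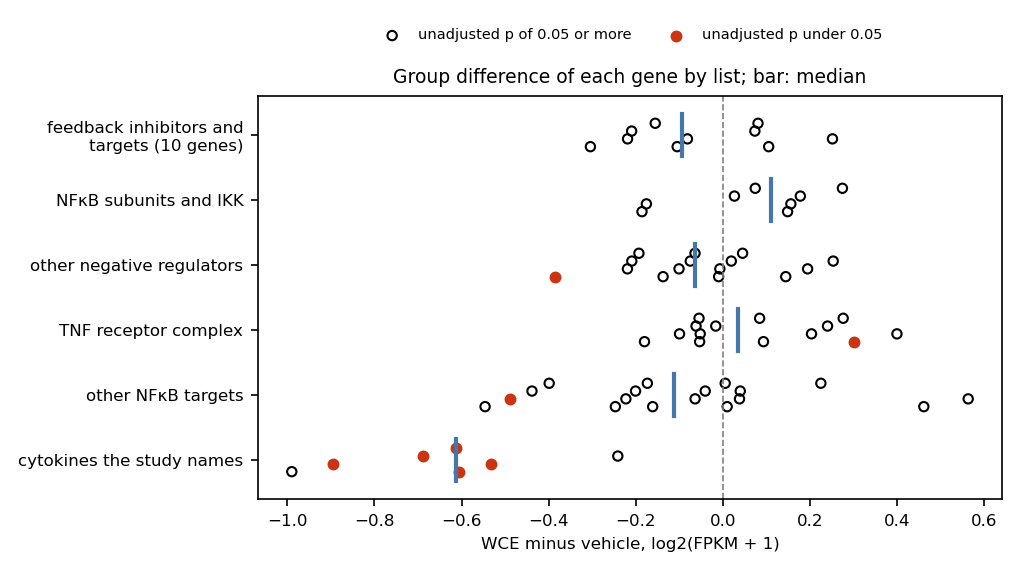
Difference between groups on the log2(FPKM + 1) scale for each tested gene of 6 lists, with the median of each list as a bar. Filled points have an unadjusted p under 0.05 by limma. The 10 feedback inhibitors and targets lie on both sides of 0 with no filled point, and 5 of the 7 cytokine genes, chosen by the study on these tumors, are filled.

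For NFKBIB, the gene with the lowest unadjusted p, the entries with the most similar course over the 6 tumors were ARF5, ZFYVE21, ASNS, SNX6 and SNX10. Likeness was measured as the root-mean-square distance between log2(FPKM + 1) values after centering, which lay between 0.027 and 0.035 for these 5 entries. ARF5, the closest, had 129, 143 and 117 FPKM with vehicle and 116, 100.1 and 107 FPKM with WCE. All WCE-treated tumors were below all vehicle-treated ones, by the least between the nearly identical libraries. Over all entries tested, 6.4% had all WCE-treated tumors lower. ARF5 was chosen for its likeness to NFKBIB over these same tumors, so its pattern is no independent evidence.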

How the data were processed

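The samples were labeled as 6 PC-3 tumors, 3 of each treatment. The authors deposited a table of FPKM values with a row for each gene entry and a column for each tumor, and each column was assigned by its label. The submitters' processing notes name TopHat2 2.0.13, Cufflinks, hg19 and mm10 without their roles. The annotation, any removal of mouse reads and any scaling between tumors are not given in the sources used here. Loci are printed as the table lists them, counted from 1. No column was left out. Read counts were not analysed here, and without an absolute depth no counting interval can be given. Relative depth is the commonest ratio of low values to those of vehicle replicate 3.

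Entries were found by symbol, on reference chromosomes only, with CXCL8 listed as IL8 and OTULIN as FAM105B. Values were transformed to log2(FPKM + 1). Entries averaging at least 0.5 FPKM entered limma (version 3.58.1, R 4.3.3), fitted with a trend of variance on level, a two-sided moderated test and Benjamini-Hochberg adjustment at 0.05. The tests were also run on simulated tumors drawn independently of each other, which could not check them for a nearly identical pair. RefSeq promoters were searched for the κB consensus in Python 3.11.15. Genes named are all 10 members, up to 4 genes per other list in order of p (with an unadjusted p under 0.05, otherwise the 2 most abundant, of which 1 is not reported here) and the 5 entries nearest to the member of lowest p. NFKBIB was that member. IKBKB and CHUK were named in addition, after their values were seen. The cell markers quoted are those of the fixed marker lists. The members and lists were chosen with earlier results of these data known. Alternatives tried changed the scaling, filter, pseudocount or trend, dropped moderation, added tumor weights or a replicate block, or left out tumors.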

Additional observations from a re-analysis of the deposited data

How the results depend on the processing

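None of the 159 values of members under the alternatives, by limma or the unmoderated test, had an adjusted p under 0.05, and the lowest was 0.163. The count of members with an unadjusted p under 0.05, 0 as reported, was 2 with limma array weights (NFKBIB and NFKBIE). With these weights 3201 of all 13287 entries were under 0.05. The count was 1 (NFKBIB) without the nearly identical pair, where 18.4% of all entries were under 0.05. It was 1 without vehicle replicate 3 (NFKBIB, with 1771 of 13287 entries) and without WCE replicate 1 (TNFAIP3, with 2033 of 13287 entries). Leaving out any other single tumor gave 0. Of the 10 members, 6 kept their direction in every alternative that could be run, but their size depended on single tumors: leaving out 1 gave −0.29 to −0.16 for NFKBIB, −0.32 to −0.11 for NFKBIE, 0.042 to 0.48 for NFKBIZ, 0.022 to 0.17 for BCL3, −0.48 to −0.092 for TNFAIP3 and −0.32 to −0.056 for TRAF1. CYLD was −0.077 with array weights. For the others, leaving out 1 tumor gave −0.28 to 0.020 for NFKBIA, −0.065 to 0.18 for TNIP1, −0.088 to 0.19 for CYLD, −0.29 to 0.082 for BIRC3 and −0.24 to 0.022 for the median of the members, with 0.022 when vehicle replicate 2 and 0.012 when WCE replicate 2 was left out. This median was −0.25 with array weights and −0.16 without the pair, and that of other NFκB targets was −0.27 with array weights. With a minimum mean of 2 FPKM, TRAF1 was not tested.

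Over all entries, 1 had an adjusted and 944 an unadjusted p under 0.05 by limma. The adjusted count was 0 with no filter and 0 with the unmoderated test, 5 without the nearly identical pair and 1 to 7 when 1 tumor was left out. The unadjusted count was 593 with the unmoderated test, 3201 with array weights, 2449 without the pair and 219 to 2033 when 1 tumor was left out. For these shifts the cause was not tested.

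Under a replicate block, 1049 entries and 0 members had an unadjusted p under 0.05, and no call on a member changed. Tumors with the same number share only that number: the correlations of their deviations from the group means were −0.24, 0.16 and −0.093, and vehicle replicate 3 correlated best with WCE replicate 1, at 0.36.

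Depth is known only in relative terms, so the precision of low values such as those of TRAF1 could not be given.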
